A study of Mus musculus with 6 samples.

Results

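The genes described here are 8 transcripts of the Fc receptor system: the Fc gamma receptor genes Fcgr1, Fcgr2b, Fcgr3 and Fcgr4, the signalling chains Fcer1g and Tyrobp, the kinase gene Syk, and Fcgrt, which encodes the neonatal Fc receptor. They were chosen by symbol, with earlier results of these data known, from the 43432 genes of the deposited count files. All 8 passed the filter on low counts. Total RNA labelled as mouse skeletal muscle was sequenced in 3 libraries titled control and 3 titled FID, and all 6 titles carry D3; neither abbreviation is explained in the labels. The series studies loss of Igf1 from fibro-adipogenic progenitors (FAPs), the mesenchymal cells that lie between muscle fibres. Per the labels' protocols, mice aged 12 to 13 weeks were injected with tamoxifen (100 ug per g body weight, 5 days) and were used 1 week or more later. The same protocol values are recorded for all 6 libraries, and the labels do not say separately whether the control mice were injected. The labels describe RNA from tissue as well as from primary FAPs. The labels give neither the promoter that drives gene deletion nor the strain. Nor do they tie each library to its own animal, and p-values here therefore reflect the spread among 6 libraries, part of which may be technical.

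Fc gamma receptors bind the constant part of IgG and let macrophages and other myeloid cells sense antibody-coated particles. In mice Fcgr1, Fcgr3 and Fcgr4 are activating: they have no signalling motif of their own and pair with the gamma chain encoded by Fcer1g, whose paired-tyrosine motif (ITAM) is phosphorylated by Src-family kinases and then recruits the kinase SYK. Tyrobp, also called DAP12, is a second ITAM chain that serves other myeloid receptors such as TREM2. Fcgr2b is the inhibitory receptor, with a single-tyrosine motif (ITIM) that recruits phosphatases. Fcgrt is set apart: its product pairs with beta-2-microglobulin and recycles IgG and albumin inside cells of many types. In injured muscle the activating receptors and both chains are mainly known from macrophages.

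Gene counts ranged from 5201853 in control 1 to 10093757 in control 3. Igf1, the gene the model deletes, stood at 134, 60.4 and 106 CPM (a gene's counts scaled to the size of its library, with TMM factors) in control 1, 2 and 3, against 109, 107 and 81.6 CPM in FID 1, 2 and 3. Its log2 fold change was -0.01, so the count of the whole gene gives no check of the labels. Transcripts of mature muscle fibres were scarce, with 5.07 to 43.9 CPM summed over 5 markers, against 20600 to 46500 CPM summed over 8 FAP markers. The summed FAP markers were lower in every FID library (20600 to 31600 CPM) than in every control library (41000 to 46500 CPM). The collagen genes Col1a1 and Col3a1 made up most of that sum. They were the 2 of the 8 FAP markers that separated the groups, both downward (12.3% of all tested genes). The other 6, Pdgfra among them, overlapped. The summed level of 14 macrophage markers was 5850, 5520 and 3460 CPM in control 1, 2 and 3, whereas FID 1, 2 and 3 gave 9970, 8730 and 6700 CPM. Lyz2 and Ctss were the most abundant of these 14 markers, and Lyz2 overlapped between the groups while Ctss did not. Of the 14, 4 separated the groups upward (13% of all tested genes). Csf1r, Mrc1, Cx3cr1 and Cd163 were among those that overlapped, with log2 fold changes of 0.37, 0.04, 0.03 and -0.42. In these bulk libraries fewer cells of a type and less RNA per cell cannot be told apart.

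The activating receptors and both signalling chains had higher levels in the libraries labelled FID, whereas Syk and Fcgr2b differed less and Fcgrt did not follow them. Of the 8 genes, 7 had a log2 fold change (FID over control) above 0, as did 47.8% of all tested genes. The contrast of Fcgr2b with Fcgr3 and Tyrobp depended on control 1. Without that library Fcgr2b had 1.33, against 1.32 for Fcgr3 and 1.15 for Tyrobp, while Fcer1g, Fcgr1 and Fcgr4 had 1.43, 2.7 and 2.91. The median of the 8 genes was 1.00, against -0.0192 over all 12881 tested genes. Because the 8 genes were chosen with earlier results known, comparisons with all tested genes describe them and do not test them. In 4 of them (Fcgr1, Fcgr3, Fcer1g and Tyrobp) every FID library lay above every control library, which 13% of all tested genes did in that direction. None passed edgeR's quasi-likelihood test after Benjamini-Hochberg adjustment over all genes, and neither did any other gene (0% of 12881). An unadjusted p under 0.05 with a higher level in FID was reached by 5 of the 8 genes, against 9.81% of all tested genes (19% with either direction). DESeq2 called Fcgr1, Fcgr3, Fcgr4, Fcer1g and Tyrobp higher in FID past its adjusted threshold. It called 5.81% of 13082 genes, 3.62% higher and 2.19% lower in FID.

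**Figure D1:**
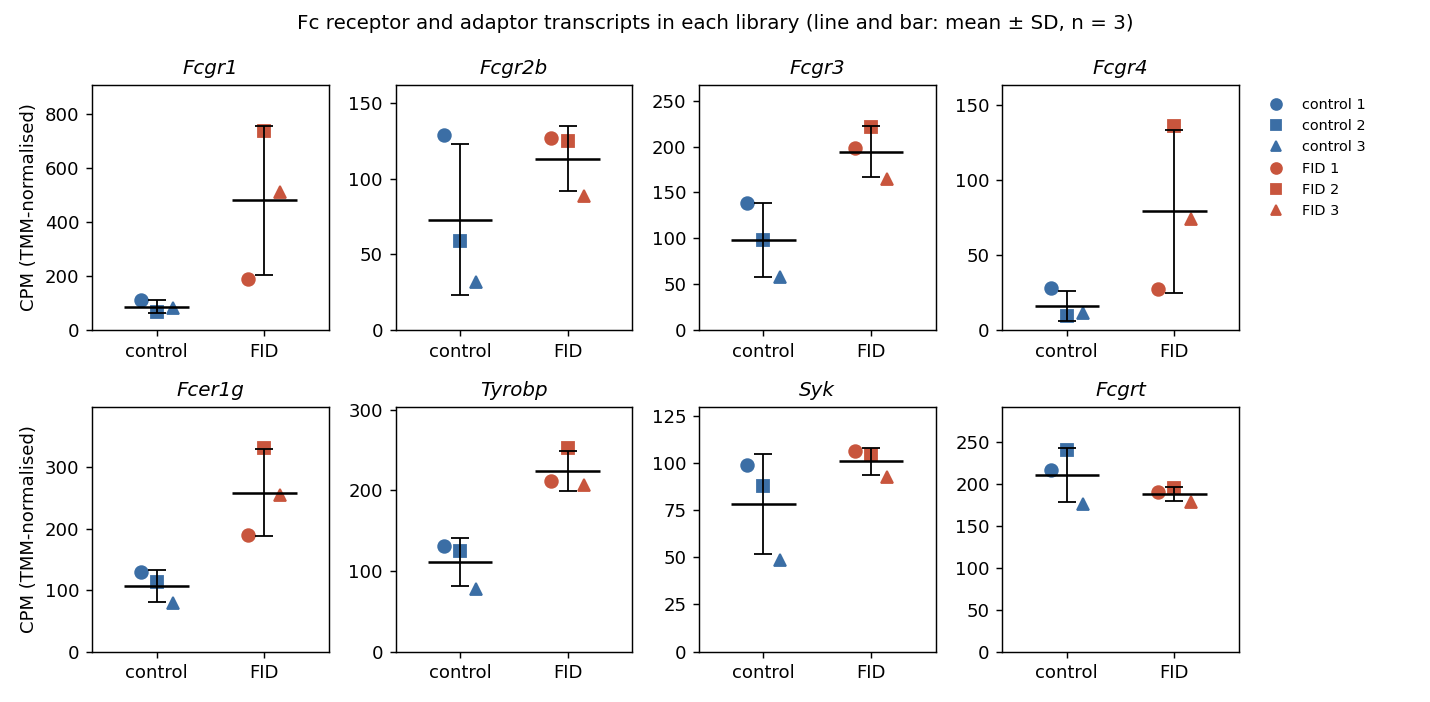
Level of each of the 8 genes in each library, in TMM-normalised CPM on a linear axis from 0; points are libraries, the line and bar are mean ± SD (n = 3). Fcgr1, Fcgr3, Fcer1g and Tyrobp separate the groups, Fcgr4 is high in FID 2 and FID 3 only, and Fcgrt lies at 176 to 240 CPM throughout.

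Fcer1g, the gamma chain shared by the activating receptors (ENSMUSG00000058715, mm10 chromosome 1, 171229572 to 171234365, minus strand), measured 129, 113 and 78.6 CPM in control 1, 2 and 3, whereas FID 1, 2 and 3 gave 190, 332 and 254 CPM. The lowest FID library lay above the highest control library. The means were 107 ± 25.8 and 259 ± 71.1 CPM (SD, n = 3 each), or a log2 fold change of 1.28 with an SE of 0.26 (adjusted p 0.136 by edgeR and 0.000664 by DESeq2). Tyrobp (ENSMUSG00000030579, chromosome 7, 30413760 to 30417585, plus strand) measured 131, 125 and 77.3 CPM in control, and FID gave 212, 253 and 207 CPM. Its FID libraries were close to one another, and control 3 was the low library of its group. The means of Tyrobp were 111 ± 29.4 and 224 ± 24.9 CPM, or a log2 fold change of 1.01 with an SE of 0.22 (adjusted p 0.136 by edgeR and 0.00239 by DESeq2).

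Fcgr1, the high-affinity IgG receptor (ENSMUSG00000015947, chromosome 3, 96282909 to 96293969, minus strand), and Fcgr4 had the highest fold changes of the 8 genes, and their order relative to each other lay within their errors. Levels of Fcgr1 were 111, 65.6 and 82.1 CPM in control 1, 2 and 3, against 189, 739 and 513 CPM in FID 1, 2 and 3. FID 1 lay much closer to the control libraries than to FID 2 and FID 3. The means were 86.2 ± 22.9 and 480 ± 277 CPM, which is 5.59-fold (log2 fold change 2.48, SE 0.47, adjusted p 0.136 by edgeR and 7.03e-06 by DESeq2). With 1 FID library left out, its log2 fold change was 2.88 without FID 1 (edgeR adjusted p 0.0205), 2.03 without FID 2 (0.443) and 2.43 without FID 3 (0.431).

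Fcgr4, an activating receptor for IgG2 subclasses (ENSMUSG00000059089, chromosome 1, 171018920 to 171029761, plus strand), showed the same division of the FID libraries at a lower level. Its counts were 140, 93 and 118 in control and 243, 1299 and 681 in FID, which correspond to 27.7, 9.43 and 11.5 CPM and to 27.4, 136 and 73.6 CPM. FID 1 did not exceed control 1, so the groups overlapped. With library totals in place of TMM factors, Fcgr4 in FID 1 lay just above control 1. Then 5 of the 8 genes separated the groups, and the share over all tested genes was not counted at that setting. The log2 fold change of Fcgr4 was 2.33 (SE 0.63, adjusted p 0.148 by edgeR and 0.0029 by DESeq2), with 2.75 without FID 1 and 1.67 without FID 2 (edgeR adjusted p 0.047 and 0.467).

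Fcgr3, the low-affinity activating receptor (ENSMUSG00000059498, chromosome 1, 171051174 to 171064935, minus strand), did not divide the FID libraries in that way. It measured 138, 98.4 and 57.7 CPM in control 1, 2 and 3, whereas FID 1, 2 and 3 gave 198, 221 and 165 CPM. FID 1 stood between the other FID libraries. The means were 98.1 ± 40.2 and 195 ± 28.5 CPM (log2 fold change 0.99, SE 0.30, adjusted p 0.169 by edgeR and 0.0354 by DESeq2).

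The stretches before the transcription starts of the activating receptors and the gamma chain are shown because these are the receptors with higher FID levels and the chain they share. They come from RefSeq promoter windows of build GRCm38.p6, which had an entry for 7 of the 8 genes, and each holds 110 bases, 5′ to 3′ on the gene's strand, that end at the RefSeq start for Fcgr1 and Fcgr3 and at the GENCODE start for Fcgr4 and Fcer1g. For Fcgr3 that RefSeq start lies inside the GENCODE span of the gene, which begins at 171064935 on its strand. Its stretch therefore does not precede the whole gene. Capitals mark matches to 3 motifs, read on both strands, that were chosen after the sequences were seen: GAGGAA (the core bound by the myeloid factor PU.1, TTCCTC on the other strand), TTCNNNGAA (the STAT-binding GAS element) and GAAA, any 2 bases and again GAAA (the core of the interferon-stimulated response element).
Fcgr1, chr3:96293970-96294079, minus strand: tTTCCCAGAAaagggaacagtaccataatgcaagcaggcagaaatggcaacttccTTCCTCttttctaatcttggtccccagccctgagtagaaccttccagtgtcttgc
Fcgr4, chr1:171018810-171018919, plus strand: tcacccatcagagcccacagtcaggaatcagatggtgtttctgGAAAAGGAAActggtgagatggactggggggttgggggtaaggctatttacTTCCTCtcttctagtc
Fcgr3, chr1:171059404-171059513, minus strand: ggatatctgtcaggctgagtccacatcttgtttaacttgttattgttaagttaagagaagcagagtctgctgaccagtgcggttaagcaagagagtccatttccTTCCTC
Fcer1g, chr1:171234366-171234475, minus strand: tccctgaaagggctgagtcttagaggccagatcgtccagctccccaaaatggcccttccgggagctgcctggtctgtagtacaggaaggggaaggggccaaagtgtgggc

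Each of the 3 activating receptors held 1 match to the PU.1 core within the 250 bases before its start, in the reverse orientation. One of the windows of Syk, which differed little between the groups, also held a match, and the window of Fcer1g held none. Such a match occurs in 23.3% of the 32851 RefSeq windows of that length. The Fcgr1 window held 1 GAS match, 109 to 101 bases before the start, and 7.02% of all windows hold one. The Fcgr4 window held 1 match to the interferon-stimulated core, 73 to 64 bases before the start, against 2.98% of all windows. No other window of the 8 genes held either of these elements. A match describes letters in a window and is not a measured binding site, and no test links the motifs to the levels.

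The inhibitory receptor Fcgr2b (ENSMUSG00000026656, chromosome 1, 170958617 to 170976547, minus strand) varied most of the 8 genes within the control group. It measured 129, 58.8 and 31.5 CPM in control 1, 2 and 3, whereas FID 1, 2 and 3 gave 127, 125 and 88.4 CPM. Control 1 lay above all FID libraries, so the groups overlapped. Its log2 fold change was 0.64 with an SE of 0.46 (adjusted p 0.473 by edgeR and 0.469 by DESeq2). It was 1.33 without control 1 and 0.29 without control 3, with edgeR adjusted p of 0.0996 and 0.652. Fcgr2b and Fcgr3 are related in sequence, and 9.58% of the distinct 50-base stretches of Fcgr3 transcripts also occur in Fcgr2b transcripts, against 2.54% of the 100-base stretches. Reads that align to more than 1 place are not counted for any gene in these files, which can lower the counts of both genes, and the read length is not stated. The strand setting of the counting is not stated either, and 2.68% of the exonic bases of Fcgr2b overlap the antisense gene Gm38204. None of the other 6 genes shared a 50-base stretch with another annotated gene.

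In FID 2 and FID 3, Fcgr1 and Fcgr4 took larger shares of the Fc gamma receptor reads than in the other libraries. Fcgr2b and Fcgr3 both took smaller shares there. Fcgr1 took 27.3% (95% Wilson interval 25.4 to 29.3), 28.2% (26.4 to 30.1) and 44.9% (42.7 to 47.2) of the reads of the 4 receptor genes in control 1, 2 and 3. It took 34.8% (33.5 to 36.2), 60.5% (59.6 to 61.4) and 61.1% (60.0 to 62.2) in FID 1, 2 and 3. FID 1 therefore lay within the control range. Fcgr2b took 31.8%, 25.3% and 17.2% in control, and FID gave 23.5%, 10.2% and 10.5%. The interval was 15.6 to 19.0% for control 3 and 9.86 to 11.2% for FID 3. The activating receptor Fcgr3 took 34%, 42.4% and 31.6% in control, and FID gave 36.6%, 18.1% and 19.6%. Fcgr4 took 6.83%, 4.06% and 6.3% in control, and FID gave 5.05%, 11.2% and 8.76%. The intervals are of counting alone and leave out the spread among libraries. The reads carry no molecular identifiers, so duplicate reads may make the intervals too narrow.

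The activating sum (Fcgr1, Fcgr3 and Fcgr4) over Fcgr2b was 2.14, 2.95 and 4.8 reads per read in control 1, 2 and 3, and it reached 3.26, 8.81 and 8.5 in FID 1, 2 and 3. FID 1 again fell among the control libraries. The difference of the log2 ratio was 1.00 (FID minus control, exact two-sided permutation p = 0.2), where 3 libraries against 3 cannot give a p below 0.1. Taken singly over Fcgr2b, the log2 difference was 1.45 for Fcgr1, 1.32 for Fcgr4 and 0.22 for Fcgr3 (exact permutation p = 0.2, 0.2 and 0.6). The ratio of Fcgr3 to Fcgr2b was 1.07, 1.67 and 1.83 in control, and FID gave 1.56, 1.78 and 1.86, so the ratio lay between 1.56 and 1.86 in 5 of the 6 libraries and was lower in control 1.

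**Figure D2:**
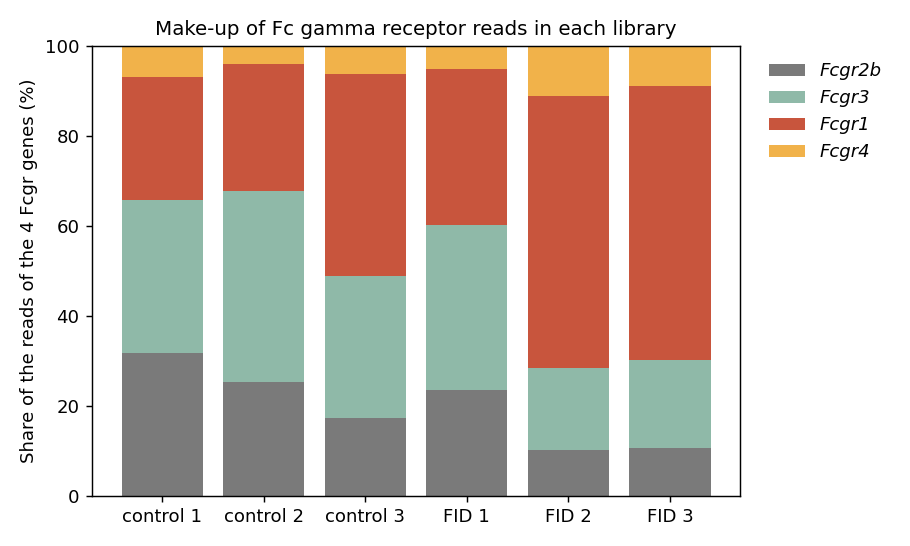
Share of the reads of the 4 Fc gamma receptor genes taken by each gene, in percent, 1 stacked bar per library; lengths of the genes are not corrected for. Fcgr1 takes 60.5% and 61.1% in FID 2 and FID 3 and at most 44.9% in the other libraries.

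Syk, the kinase that ITAM chains recruit (ENSMUSG00000021457, chromosome 13, 52583173 to 52648792, plus strand), measured 98.9, 87.5 and 48.3 CPM in control 1, 2 and 3, whereas FID 1, 2 and 3 gave 106, 104 and 92.6 CPM. Control 1 lay within the FID range, and control 3 was the low library. The means were 78.2 ± 26.5 and 101 ± 7.18 CPM (log2 fold change 0.37, SE 0.25, adjusted p 0.451 by edgeR and 0.522 by DESeq2). The log2 fold change of Syk was 0.13 without control 3.

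Fcgrt, the neonatal Fc receptor (ENSMUSG00000003420, chromosome 7, 45092990 to 45103851, minus strand), was the gene of the 8 with a log2 fold change below 0. It measured 217, 240 and 176 CPM in control 1, 2 and 3, whereas FID 1, 2 and 3 gave 190, 195 and 179 CPM, and all FID libraries lay within the control range. Its log2 fold change was -0.16 with an SE of 0.15 (adjusted p 0.575 by edgeR and 0.692 by DESeq2). B2m, the light chain that pairs with it and with MHC class I, measured 1180, 536 and 779 CPM in control, and FID gave 1110, 2860 and 2260 CPM. B2m was thus high in FID 2 and FID 3 and not in FID 1 (log2 fold change 1.32, SE 0.40, edgeR adjusted p 0.172). The difference between the 2 genes was not tested.

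Per kilobase of exon, the 8 genes kept much of their order in both groups. Tyrobp was the most abundant with 166 ± 44.0 RPKM in control and 336 ± 37.4 RPKM in FID, followed by Fcer1g with 122 ± 29.5 and 296 ± 81.4 RPKM. In control these were followed by Fcgrt (100 ± 15.4 RPKM), Fcgr3 (56.5 ± 23.1), Fcgr1 (33.3 ± 8.83), Fcgr4 (12.9 ± 7.96), Fcgr2b (12.6 ± 8.70) and Syk (8.36 ± 2.83). Tyrobp and Fcer1g, Fcer1g and Fcgrt, and the last 3 genes had control means within their spread of one another. In FID, Fcgr1 came next with 186 ± 107 RPKM, ahead of Fcgr3 (112 ± 16.4), Fcgrt (89.4 ± 4.03), Fcgr4 (63.0 ± 43.6), Fcgr2b (19.6 ± 3.75) and Syk (10.8 ± 0.767). Fcgr1 reached 286 and 198 RPKM in FID 2 and FID 3 and 72.9 RPKM in FID 1, so its rank rested on those 2 libraries. Tyrobp and Fcer1g, and Fcgr1, Fcgr3 and Fcgr4, also had FID means within their spread.

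Since macrophage markers were higher in the same libraries, each gene was also set against the mean log2(CPM + 1) of the 14 macrophage markers in its own library. That mean was 7.96, 7.81 and 7.01 in control 1, 2 and 3, against 8.37, 8.23 and 8 in FID 1, 2 and 3, a difference of 0.61. Of the 14 markers, 13 had a log2 fold change above 0 (47.8% of all tested genes) and 4 separated the groups upward (13%). Relative to it, Tyrobp was -0.91, -0.83 and -0.72 in control, while FID gave -0.64, -0.25 and -0.30, a difference of 0.43. Fcgr3 differed by 0.45 and also separated the groups upward. Syk went the other way, with -1.32, -1.34 and -1.39 in control against -1.63, -1.52 and -1.45 for FID, a difference of -0.19, and Fcgrt differed by -0.76 without overlap. For these 4 genes the exact two-sided permutation p was 0.1, the smallest that 3 libraries against 3 allow, and 8 such comparisons were made.

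Fcgr1 and Fcgr4 differed from the macrophage markers by 1.68 and 1.48, but only through FID 2 and FID 3 (exact permutation p = 0.2 and 0.3). In FID 1 the relative value of Fcgr1 was -0.80, within the control values of -1.75 to -0.64, and that of Fcgr4 was -3.54, within -4.42 to -3.12. Fcer1g divided the FID libraries in the same way, with -0.79 in FID 1, within the control values of -0.97 to -0.70, and 0.15 and 0 in FID 2 and FID 3, a difference of 0.65 (exact permutation p = 0.2). Fcgr2b differed by 0.23 with overlap (exact permutation p = 0.5). The reference mattered for the smaller differences. Against the leukocyte gene Ptprc alone, Tyrobp and Fcgr3 differed by -0.07 and -0.05, Fcgr2b by -0.28 and Fcer1g by 0.15. Fcgr1 still differed by 1.18 against Ptprc, Fcgr4 by 0.98, Syk by -0.69 and Fcgrt by -1.26. Syk differed by only -0.04 against the macrophage marker Csf1r alone, and by -0.38 against Adgre1 alone. Tyrobp and Fcgr3 differed by 0.57 and 0.59 against Csf1r alone, and by 0.24 and 0.26 against Adgre1 alone.

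Interferon-response transcripts divided the FID libraries in the way Fcgr1 and Fcgr4 did. All 10 markers had a log2 fold change above 0, as did 47.8% of all tested genes. The mean log2(CPM + 1) of 10 such markers was 6.32, 4.79 and 5.84 in control 1, 2 and 3. FID 1 lay within that range at 6.09, and FID 2 and FID 3 lay above it at 8.77 and 7.90. Measured from that mean, Fcgr1 was 0.48, 1.27 and 0.54 in control against 1.48, 0.76 and 1.11 for FID, a difference of 0.35. Fcgr4 was -1.48, -1.41 and -2.19 in control against -1.26, -1.67 and -1.68 for FID, a difference of 0.16. The same subtraction gave -0.88 for Fcgr3, -0.90 for Tyrobp, -0.68 for Fcer1g, -1.10 for Fcgr2b, -1.51 for Syk and -2.09 for Fcgrt. The part of the interferon response or of macrophage content in these levels was not tested.

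**Figure D3:**
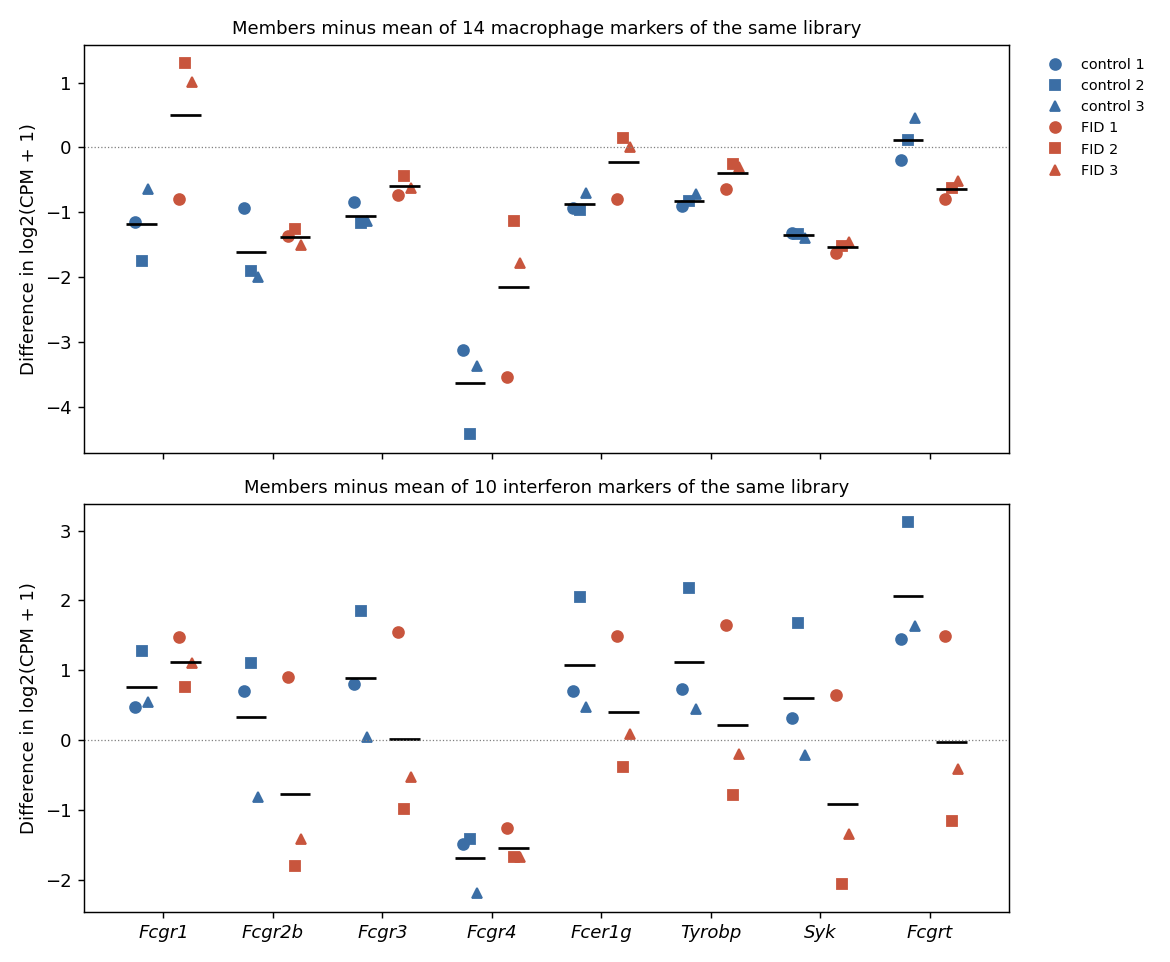
Each gene's log2(CPM + 1) minus the mean of 14 macrophage markers (top) or of 10 interferon-response markers (bottom) of the same library; points are libraries and lines are group means. Against macrophage markers, Fcgr1, Fcgr4 and Fcer1g are high in FID 2 and FID 3 and within the control range in FID 1, and against interferon markers Fcgr1 and Fcgr4 differ by 0.35 and 0.16.

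The genes with the most similar profiles were ranked over the 6 libraries, and no 2 of the 8 genes had one in common among their first 3. By Pearson's r of log2(CPM + 1), a description over 6 libraries that share the group difference, Fcgr1 was closest to Nkiras2, Epsti1 and Casp8 (r of 0.998, 0.998 and 0.997), of which Epsti1 is an interferon-induced gene. Fcgr4 was closest to Slamf7 (0.999), a receptor of activated leukocytes, then to Pcp4l1 (0.998) and Mier1 (0.995). Fcgr3 was closest to Gpnmb (0.999), a glycoprotein of lipid-laden macrophages, and to the lysosomal protease gene Ctsb and Ms4a4a (0.997 each). Fcer1g was closest to the proton pump subunit gene Atp6v1f, the galectin gene Lgals3 and Spi1, which encodes PU.1 (0.998 each). Tyrobp was closest to Dnase1l1 (0.997), Plk2 and the lysosomal protease gene Lgmn (0.996 each), Syk to Nemp2, Cerk and Sorl1 (0.994 each), Fcgr2b to Gdpd1, Vsir (0.995 each) and Slc6a6 (0.992), and Fcgrt to Rnf215 (0.994). Among the 8 genes, Fcgr1 and Fcgr4 had r = 0.98, Fcgr3 and Tyrobp 0.97, and Fcgr2b and Syk 0.94, whereas Fcgr1 and Syk had 0.49. Fcer1g had 0.95 to Fcgr1, 0.93 to Fcgr4, 0.91 to Fcgr3 and 0.97 to Tyrobp, and Fcgr1 and Tyrobp had 0.84.

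Other genes of the pathway were taken from lists of 108 symbols, of which 106 were matched and 85 tested. Of the 85, 68 had a log2 fold change above 0 with a median of 0.77, 49 (57.6%) had an unadjusted p under 0.05 with a higher level in FID and 1 with a lower level, against 9.81% and 9.21% of all tested genes. In 43 (50.6%) every FID library lay above every control library, against 13% of all tested genes. None passed edgeR's adjusted threshold, and DESeq2 called 32, all higher in FID, where it called 3.62% of all genes. Many of these genes are known from myeloid cells, and the macrophage markers were higher in the same libraries, whose part in these counts was not tested. The lists were chosen with earlier results of these data known, so the counts describe the lists and do not test them.

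Among receptors that signal through Tyrobp or Fcer1g, 18 of 24 were tested and all 18 had a log2 fold change above 0 (47.8% of all tested genes), with Trem1 at 0.00 after rounding and a median of 0.92. An unadjusted p under 0.05 was reached by 9 of the 18 (9.81% of all tested genes, higher in FID), and 8 separated the groups upward (13%), so 10 overlapped. Cd300c2, an activating receptor of myeloid cells, measured 39.6, 35.4 and 25.7 CPM in control, and FID gave 72.5, 90.7 and 78.4 CPM (log2 fold change 1.27, SE 0.19, edgeR adjusted p 0.122). Its relatives Cd300ld and Cd300lb had log2 fold changes of 1.10 and 0.99, and Clec4d, a C-type lectin that detects mycobacterial lipid, had 1.03. Trem2, the lipid-sensing partner of Tyrobp, measured 97.9, 99.4 and 52.3 CPM in control, and FID gave 120, 200 and 143 CPM (log2 fold change 0.89, SE 0.29, edgeR adjusted p 0.183). All of these had every FID library above every control library.

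Other antibody receptors and ITAM chains were mostly scarce. Of 11 further Fc receptor genes 3 were tested, and Fcer1a, the IgE-binding chain of mast cells, had 0 counts in 4 libraries and 1 count each in FID 2 and FID 3. A count of 0 allows up to 3 counts, or 0.293 to 0.593 CPM depending on the library. Trim21, a cytosolic antibody receptor and interferon-induced ubiquitin ligase, measured 20.8, 9.12 and 16.9 CPM in control, and FID gave 18, 72.1 and 39 CPM, again high in FID 2 and FID 3. Fcrls, a receptor-like gene of resident macrophages, had a log2 fold change of 0.55 (SE 0.23) and Fcrl1 had 1.08 (SE 0.41). Among ITAM chains of lymphocytes, Cd3e had no count in any library and Cd247 had means of 1.22 ± 0.155 CPM (control) and 0.648 ± 0.311 CPM (FID). Nfam1, an ITAM receptor of myeloid and B cells, measured 31.7 ± 9.64 and 58.5 ± 8.01 CPM without overlap. Hcst, the DAP10 adaptor that lies next to Tyrobp, reached at most 3.04 CPM.

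Kinases and adaptors that act with or after SYK were mostly higher in FID. Of 28 tested members of 30, 21 had a log2 fold change above 0 (47.8% of all tested genes), 18 separated the groups upward (13%), and the median was 0.70. Btk, a kinase of myeloid and B cells, measured 17.2, 13.8 and 12.7 CPM in control, and FID gave 24.2, 29.6 and 27.4 CPM (log2 fold change 0.91, SE 0.17, edgeR adjusted p 0.136). Lat2 and Vav1, an adaptor and an exchange factor, had 1.22 (SE 0.23) and 1.03 (SE 0.20), and the widely expressed adaptor Grb2 had 0.55 (SE 0.17). Plcg1 and Fyn, chosen after their values were seen, were lower in FID. Plcg1, the phospholipase C gamma form of most tissues, had -0.53 (unadjusted edgeR p 0.0275), and its groups overlapped. The Src-family kinase Fyn had -0.22 (unadjusted edgeR p 0.106), with all FID libraries below all control libraries.

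Genes with inhibitory roles were also mostly higher in FID. Of 15 tested receptors with inhibitory motifs, 11 had a log2 fold change above 0 (47.8% of all tested genes), 8 separated the groups upward (13%) and the median was 1.11. Clec4a2, an inhibitory lectin, measured 21, 19.2 and 19.3 CPM in control, and FID gave 40, 37.5 and 50.8 CPM (log2 fold change 1.11, SE 0.16, edgeR adjusted p 0.122). Pirb, which binds MHC class I, had 1.22 (SE 0.24), Cd300lf 1.95 (SE 0.39) and Cd200r1 1.61 (SE 0.15), and Pecam1, which is abundant in endothelium, had -0.65 (SE 0.36). Of 13 phosphatases, ubiquitin ligases and other brakes, 9 had a value above 0 (47.8% of all tested genes), 6 separated the groups upward (13%) and the median was 0.34, or 0.16 without control 3. Ptpn6, the SHP-1 phosphatase of blood cells that inhibitory receptors recruit, measured 36.2, 29.8 and 30.5 CPM in control, and FID gave 56.5, 91.6 and 80.7 CPM (log2 fold change 1.25, SE 0.20, edgeR adjusted p 0.122). Ptpn22, Dok2 and Dok1 had 1.46 (SE 0.35), 0.87 (SE 0.24) and 0.55 (SE 0.17), while the widely expressed phosphatase gene Ptpn11 had -0.08 (SE 0.14).

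**Figure D4:**
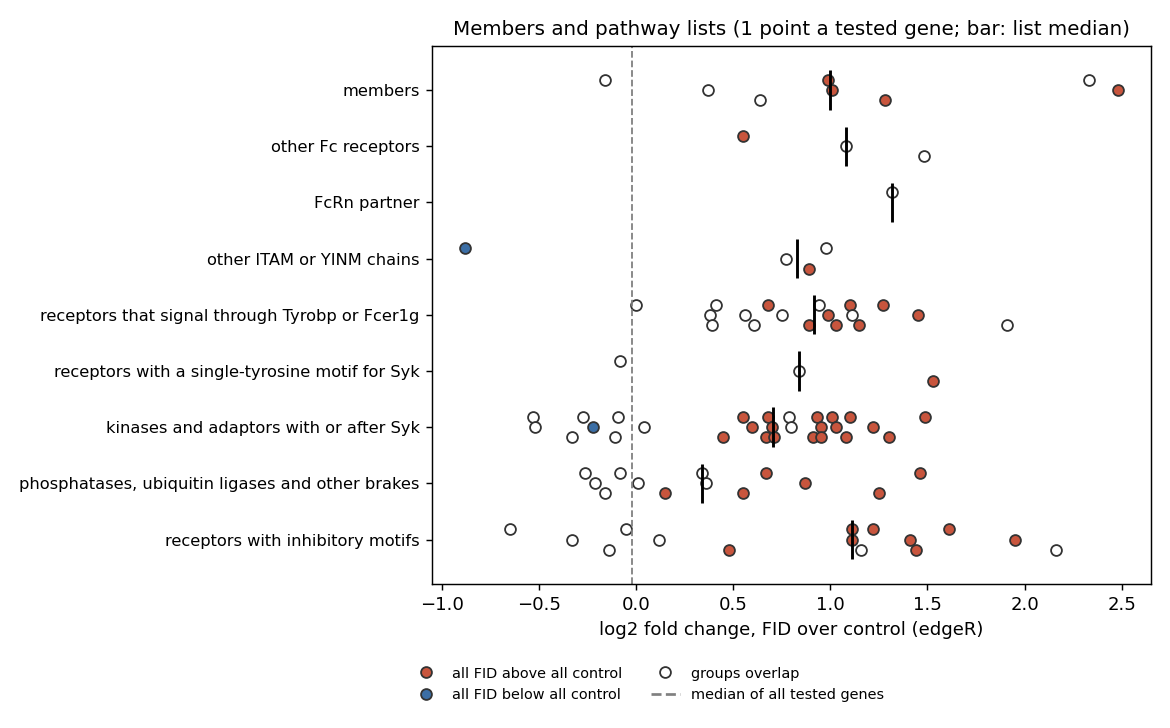
Log2 fold change (FID over control, edgeR) of the 8 genes and of each tested gene in 8 pathway lists; filled points are genes whose groups do not overlap, vertical bars are list medians and the dashed line is the median of all tested genes at -0.0192. List medians lie between 0.34 and 1.32.

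Fcgr2b, Fcgr4, Fcgr3 and Fcer1g lie together on chromosome 1, between 170958617 and 171234365. Of 39 other tested genes within 1 Mb of that span, 8 had all FID libraries above the control libraries and 1 had all below. Over all tested genes, 13% lay above and 12.3% below, so the separated neighbours were mostly of the upward kind. Both directions together gave 23.1%, against 25.3% of all tested genes. An unadjusted edgeR p under 0.05 was reached by 8 higher and 1 lower in FID, against 9.81% and 9.21% of all tested genes. The median log2 fold change of the 39 genes was 0.0932. The neighbours named here were chosen after their values were seen. Those that separated the groups upward included the leukocyte receptor genes Cd84, Ly9 and Cd48 (log2 fold changes 1.33, 1.28 and 1.12), and Adamts4, a matrix protease, was the one that separated downward, with -1.32. Slamf7 lies in the same window and stood at 24.8 CPM in FID 1 and at 96.2 and 57.4 CPM in FID 2 and FID 3, against 10.7 to 27.1 CPM in control.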

How the data were processed

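The authors deposited raw counts of reads per Ensembl gene, 1 file for each of 6 libraries, and the files are used as deposited. The submitters' processing notes name mm10 and, with no role or order, STAR, Bowtie2 2.5.4, cutadapt, HTSeq, DESeq2 and SAMtools. Strand setting, read length and annotation release: not given in the sources used here. Per the deposited count files, reads aligned to several places and reads ambiguous between genes were set aside, and entries that name no gene (9.6% to 10.9% of each file) entered neither library sizes nor tests. Per the labels' protocols, the kit keeps strand, the input was 1000 ng and RNA integrity exceeded 5.6.

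Symbols were matched for 42462 of 43432 genes (97.8%), and positions and exon lengths come from GENCODE M21 on the same assembly. Genes were filtered with filterByExpr (minimum count 10, minimum total 15), scaled with TMM and tested with edgeR 4.0.16 (two-sided quasi-likelihood test, group as the only term, Benjamini-Hochberg adjustment at 0.05). The SE was taken as |log2 fold change| over the root of F. DESeq2 1.42.0 and limma 3.58.1 were alternatives. Only the edgeR fit was tested on simulated counts first. It recovered 42% and 32% of genes set to a log2 fold change of 1 and -1. At 2 and -2 it recovered 86% and 70%, and it made 8 false calls. Values relative to markers use log2(CPM + 1). Within groups, the chi-square between libraries was 14.1 to 46 per degree of freedom, well above sampling noise. The 8 genes and the lists were chosen with earlier results of these data known. Named pathway genes are up to 4 per list with the smallest p and the most abundant one. For similar profiles, the 3 genes with the highest r were taken. Fcer1a, Cd3e, Plcg1, Fyn, Klrk1 and the named chromosome 1 neighbours fall outside these rules and were chosen after their values were seen. A named pathway gene is not reported here.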

Additional observations from a re-analysis of the deposited data

How the results depend on the processing

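The log2 fold changes of the 8 genes kept their direction under all 12 alternatives (other scaling, no filter, DESeq2, limma-voom, the block, and each library left out). Calls did not: edgeR called 0 genes, 269 without the filter on low counts, 0 to 359 with 1 library left out (3 without control 1, 359 without FID 1), and DESeq2 called 760. Of the 8 genes, 0 passed in edgeR, 4 without the filter, 5 in DESeq2 and 0 to 3 with 1 library left out (the 3 without FID 1). The number whose groups separated upward ranged from 4 to 7, with 7 without control 1. Separation is easier to reach with 1 library left out. The share over all tested genes was not counted for these settings, so the 13% given for all 6 libraries is no measure for them. With Ptprc in place of the macrophage markers, the relative differences of Fcgr2b, Fcgr3 and Tyrobp turned to -0.28, -0.05 and -0.07. List medians moved in 4 cases: other Fc receptors to 1.51 and single-tyrosine receptors to 1.37 without control 1, brakes to 0.16 without control 3, and other ITAM chains to 0.53 without FID 2. The cause was not tested. Depth limits Fcgr4 most, at 93 to 140 counts in control.

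The labels do not say whether equal replicate numbers pair the libraries. Deviations of same-numbered libraries from their group means correlated at -0.0128, -0.32 and 0.343. With means of 3 libraries, these values can neither show nor exclude a pairing. With the replicate number as a block, edgeR called 0 genes, 6 of the 8 genes had an unadjusted p under 0.05 and 47 of the pathway genes did, against 49 without it.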

Other observations

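Klrk1, which encodes the activating receptor NKG2D of NK cells and other leukocytes and signals through Tyrobp or Hcst, was chosen after its values were seen. Control 1, 2 and 3 gave 0.593, 0.507 and 0.391 CPM of it, FID 1 gave 0.676 CPM, and FID 2 and FID 3 gave 9.34 and 7.67 CPM. It missed the filter on low counts, and DESeq2 gave an adjusted p of 0.00319. Of the other NK cell markers, Gzma was also highest in FID 2 and FID 3, at 0.735 and 1.4 CPM (7 and 13 counts) against at most 0.396 CPM in the other libraries. Ncr1 had no count except 0.324 CPM in FID 3, Prf1 had 0.21 CPM in FID 2 and 0 elsewhere, and Klrb1c had at most 0.42 CPM. Genes of neutrophils, which also carry Fc receptors, were scarce, with 41.3 to 48.1 CPM summed over 9 markers in control and 56.2 to 90 CPM in FID.

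Of the 2 inhibitory Lilr genes on the list, neither was matched to the deposited identifiers by symbol. Clec2i, in the list of receptors with a single-tyrosine motif, is not known to carry that motif. Its means were 2.95 ± 1.24 CPM (control) and 8.29 ± 0.896 CPM (FID), and without it the list held Clec7a (log2 fold change 0.84, SE 0.41) and Clec9a (-0.08, SE 0.62) as tested genes.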
